A study of Mus musculus with 11 samples.

Results

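The genes described here are 34 genes of mitosis and the mitotic spindle, taken by name from the deposited table of raw read counts. No measured value served as the rule of choice, but the genes were chosen with earlier results of these data known. All 34 were present among the 13498 genes of the table and all 34 passed the filter on low counts, which left 13292 genes for testing. They were measured by sequencing of total RNA from E13.5 mouse retinas, NMRI strain, in 11 libraries of 4 genotypes. The DKO group (3 libraries) carried Six3F/F, CAGGCre-ERTM and Six6-/-, the Six3KO group (3 libraries) Six3F/F, CAGGCre-ERTM and Six6+/+, the Six6KO group (2 libraries) Six3F/F and Six6-/-, and the WT group (3 libraries) Six3F/F and Six6+/+. Floxed Six3 alleles and the tamoxifen given to the dams at E10.5 and E11.5 (0.15 mL at 20 mg/mL each time) were thus common to every group, WT included. Cre was present in DKO and Six3KO only, under a promoter active in most tissues, so recombination was not limited to the retina, and loss of Six3 cannot be told apart from an effect of activated Cre in comparisons with WT or Six6KO. Six6 was lost from the germ line. Each library came from a pair of retinas, and the submitters had left out 1 further Six6KO sample because many of its reads were duplicates.

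In mitosis, Cdk1 bound to cyclins A and B starts the reorganisation of the cell, the Aurora and Polo-like kinases build the bipolar spindle, and a checkpoint of kinases at the kinetochores delays the anaphase-promoting complex until every chromosome is attached. Genes of this programme are held off in resting and G1 cells and switched on together late in the cycle, through promoter elements bound by the MuvB core of the DREAM and B-MYB complexes, with FOXM1, and by NF-Y. In the retina at this stage, progenitors divide at the apical surface while ganglion cells and other early neurons leave the cycle, so these transcripts mark the dividing part of the tissue. Bulk RNA cannot separate fewer dividing cells from less RNA of these genes in each dividing cell. The design asks what loss of Six3, of Six6, or of both does to retinal progenitors, since both encode homeodomain factors of those cells.

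Promoters of the genes shared sequence features that played no part in their choice. Of the 34 genes, 29 had a promoter in the RefSeq table (build GRCm38.p6), which gives 250 bases before and 50 after the transcription start. Ccna2, Aurkb, Incenp, Tpx2 and Kif20a were not matched. The letters TTTGAA, the core of the cell cycle genes homology region (CHR) that MuvB binds, were present on one strand or the other in 23 of the 29 (79.3%), against 18.5% of 17491 protein-coding genes and 20.2% of all 27025 symbols in the table. Within 50 bases of the start on either side they were present in 21 of 29 (72.4%), against 4.59% of the protein-coding genes. CCAAT, the letters of the NF-Y box, occurred on either strand in 23 of 29 (79.3%) against 42.3%, and at least 2 times in 16 of 29 (55.2%) against 14.6%. Both motifs were found in 20 of 29 (69.0%), against 7.40% of protein-coding genes. The related letters TTCGAA were found in 3 of 29 (10.3%), against 2.13%. A match describes these letters in this window and is not a shown binding site.

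Stretches of 160 bases, from 110 before the start to 50 after it, are given for 9 genes, at least 1 from most of the roles described below, to show how the motifs sit around the start. Sequences are from RefSeq, GRCm38.p6, read 5′ to 3′ on the strand of the gene, and capitals mark TTTGAA or its reverse complement TTCAAA, and CCAAT or its reverse complement ATTGG.
Cdk1, chr10:69352863-69353022, minus strand: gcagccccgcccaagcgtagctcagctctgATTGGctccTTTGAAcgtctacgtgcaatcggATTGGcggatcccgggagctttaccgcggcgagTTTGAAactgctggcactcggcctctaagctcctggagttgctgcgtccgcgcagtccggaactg
Ccnb2, chr9:70421505-70421664, minus strand: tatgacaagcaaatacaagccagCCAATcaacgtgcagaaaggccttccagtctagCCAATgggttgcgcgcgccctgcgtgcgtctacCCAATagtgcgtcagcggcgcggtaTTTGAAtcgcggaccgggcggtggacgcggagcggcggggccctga
Aurka, chr2:172370521-172370680, minus strand: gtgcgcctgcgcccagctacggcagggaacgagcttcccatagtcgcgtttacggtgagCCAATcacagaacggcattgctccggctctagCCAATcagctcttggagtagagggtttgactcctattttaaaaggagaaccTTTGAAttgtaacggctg
Plk1, chr7:122159325-122159484, plus strand: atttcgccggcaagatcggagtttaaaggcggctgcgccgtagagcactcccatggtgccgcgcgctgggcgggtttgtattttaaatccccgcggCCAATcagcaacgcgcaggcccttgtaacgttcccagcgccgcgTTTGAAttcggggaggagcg
Ttk, chr9:83834579-83834738, plus strand: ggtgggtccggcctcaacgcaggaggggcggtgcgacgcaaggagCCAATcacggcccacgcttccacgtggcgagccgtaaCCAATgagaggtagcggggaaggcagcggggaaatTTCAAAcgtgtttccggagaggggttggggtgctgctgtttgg
Ndc80, chr17:71526808-71526967, minus strand: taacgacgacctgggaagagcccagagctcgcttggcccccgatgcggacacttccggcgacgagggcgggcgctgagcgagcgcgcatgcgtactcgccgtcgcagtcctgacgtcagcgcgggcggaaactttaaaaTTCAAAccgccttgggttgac
Cdc20, chr4:118437294-118437453, minus strand: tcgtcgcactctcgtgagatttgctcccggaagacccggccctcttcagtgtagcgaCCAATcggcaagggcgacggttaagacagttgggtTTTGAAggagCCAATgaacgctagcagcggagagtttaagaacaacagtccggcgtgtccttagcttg
Kif11, chr19:37376272-37376431, plus strand: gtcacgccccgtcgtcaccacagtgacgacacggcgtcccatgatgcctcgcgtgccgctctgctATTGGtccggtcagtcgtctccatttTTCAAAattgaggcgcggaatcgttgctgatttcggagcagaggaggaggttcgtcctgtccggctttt
Top2a, chr11:99024140-99024299, minus strand: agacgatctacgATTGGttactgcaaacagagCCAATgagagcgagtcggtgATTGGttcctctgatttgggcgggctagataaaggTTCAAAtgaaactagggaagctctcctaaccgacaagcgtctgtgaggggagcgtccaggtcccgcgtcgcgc
In Ccnb2, Aurka and Plk1 the CHR letters lie just downstream of the start with 1 or more CCAAT letters upstream of it, while the Ndc80 stretch holds the CHR letters alone. Neighbouring CCAAT letters 31 to 33 bases apart, a spacing looked for after the sequences of Aurka, Ccnb2 and Cdk1 were seen, occurred in 6 of the 16 promoters with at least 2 of them (37.5%; Ccnb1, Ccnb2, Cdk1, Aurka, Ube2c and Hmmr). Without the 3 genes the spacing was taken from, it occurred in 3 of 13 (23.1%). It occurred in 9.15% of 2558 protein-coding promoters with at least 2. In a list of other mitosis genes it occurred in 4 of 18 such promoters (22.2%), and in one of S phase genes in 0 of 8. Among lists set beside the mitosis genes, TTTGAA was present in 27 of 49 matched promoters of other mitosis genes (55.1%) and in 3 of 20 of S phase genes (15%). CCAAT was present in 34 of these 49 (69.4%) and in 13 of these 20 (65%). It occurred at least 2 times in 18 of the 49 (36.7%) and 8 of the 20 (40%), so CCAAT was not particular to the 34 genes. Birc5, Nuf2 and Nusap1 held none of the 3 motifs in this window.

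**Figure D1:**
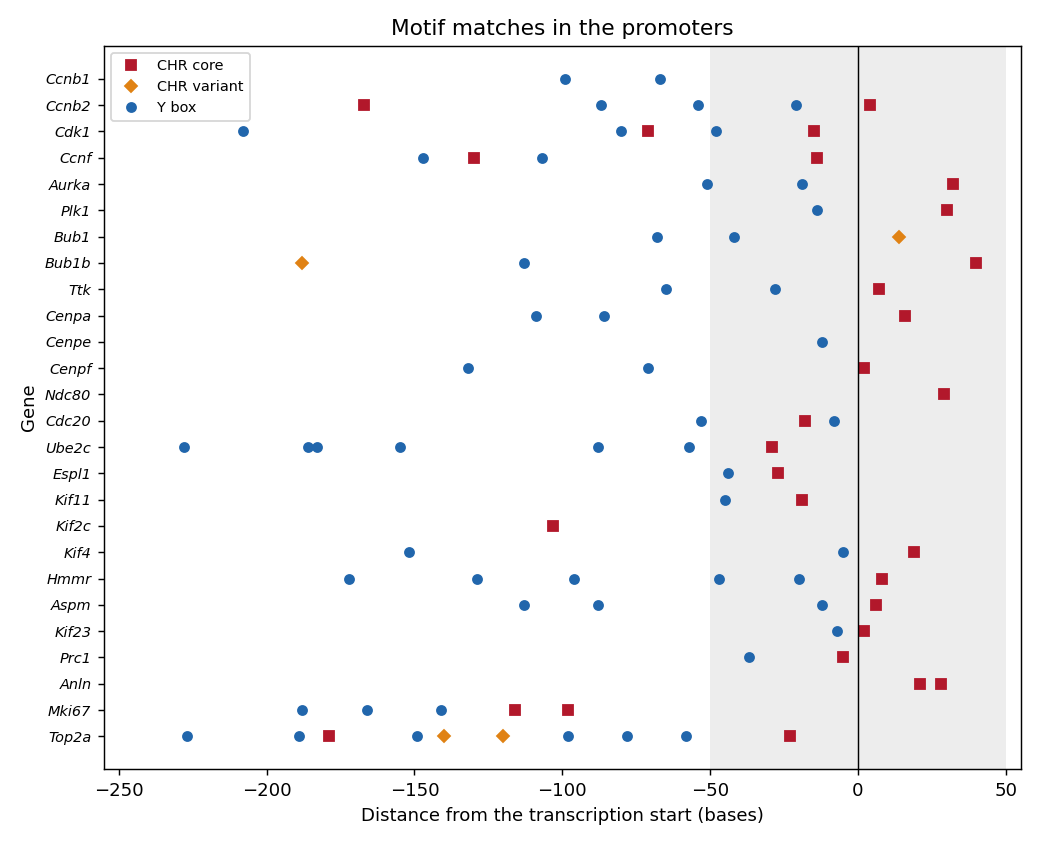
Position of each motif match (horizontal axis, distance in bases from the transcription start, grey within 50 bases of it) in the first listed promoter of the 26 matched genes with a match (rows). Red squares mark the CHR core, orange diamonds its variant and blue circles the NF-Y box (Y box); CHR cores gather around the start, with Y boxes mostly upstream of them.

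Libraries held 11965016 to 12659540 reads in genes in the DKO group, 9786661 to 16403191 in Six3KO, 8867708 to 9166054 in Six6KO and 7807744 to 12505379 in WT. Levels below are CPM, counts scaled to a common library size with TMM factors, and values within a group are always given in the order rh010, rh011 and rh021 for DKO, rh006, rh012 and rh026 for Six3KO, rh007 and rh020 for Six6KO, and rh016, rh023 and rh024 for WT. Six3 lay at 56.2 to 98.2 CPM in DKO and 30.3 to 75.9 CPM in Six3KO, against 164 to 299 CPM in WT. Six6 lay at 52.8 to 99.8 CPM in DKO and 76.8 to 131 CPM in Six6KO, against 225 to 340.1 CPM in WT, so each gene was lower in every library labelled as lacking it than in every WT library. Retinal progenitor genes were present in every library (summed level of 12 genes 2741 to 7351 CPM), but tissues that border the retina were present too and in unequal amounts. The 14 periocular mesenchyme genes in the table summed to 99.5, 179 and 172 CPM in DKO, 1388, 493 and 4039 CPM in Six3KO and 2502 and 1720.2 CPM in Six6KO, against 2096, 476 and 2222 CPM in WT. The 15 lens genes reached 23408 and 18794 CPM in Six3KO libraries rh012 and rh026 and 10320.4 CPM in Six6KO library rh020, against 1409 CPM or less in every other library. All genes of these lists had reads in at least 1 library, and of the 9 red blood cell genes in the table Hba-a1, Hbb-bt and Hbb-bs were at 0 throughout. Six3KO library rh026 and Six6KO library rh020 also lay farthest to one side on the first principal component of all genes (45.9% of the variance), and results are given without them where that matters.

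All 34 genes were well measured, with 403 to 21570 reads per gene and library. Together they took 0.643% to 0.770% of the reads in DKO libraries, 0.557% to 0.683% in Six3KO, 0.648% to 0.682% in Six6KO, and 0.656% to 0.830% in WT. Per kilobase of exon, which allows a rough comparison of levels between genes, Mki67 and Top2a stood highest. The length used merges the exons of all annotated transcripts of a gene. It can exceed that of the RNA present, so the order of genes depends in part on annotation. Mki67, whose protein coats mitotic chromosomes and serves as a proliferation marker, stood at 148 ± 20.6 CPM per kb in WT (mean ± SD, n = 3), above 99.0% of the 13015 genes with a length. Top2a, the topoisomerase that untangles sister chromatids, stood at 131 ± 20.3 CPM per kb in WT, and the ranges of the pair overlapped. Ccna2 followed at 61.8 ± 9.96, Tpx2 at 54.9 ± 6.61 and Cdc20 at 52.1 ± 2.37 CPM per kb, with ranges that overlapped one another but not those of Mki67 and Top2a. At the low end stood Ndc80 (12.9 ± 1.55), Nuf2 (10.9 ± 1.98) and Ccnf (10.8 ± 1.14), all in CPM per kb, with Espl1 just below Ccnf, and the WT ranges of these 4 overlapped. Even these lay above the median of all genes in WT (7.53 CPM per kb). The genes lie on 15 chromosomes, with at most 6 on any 1, and their merged exons span 1531 to 15433 bases.

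**Figure D2:**
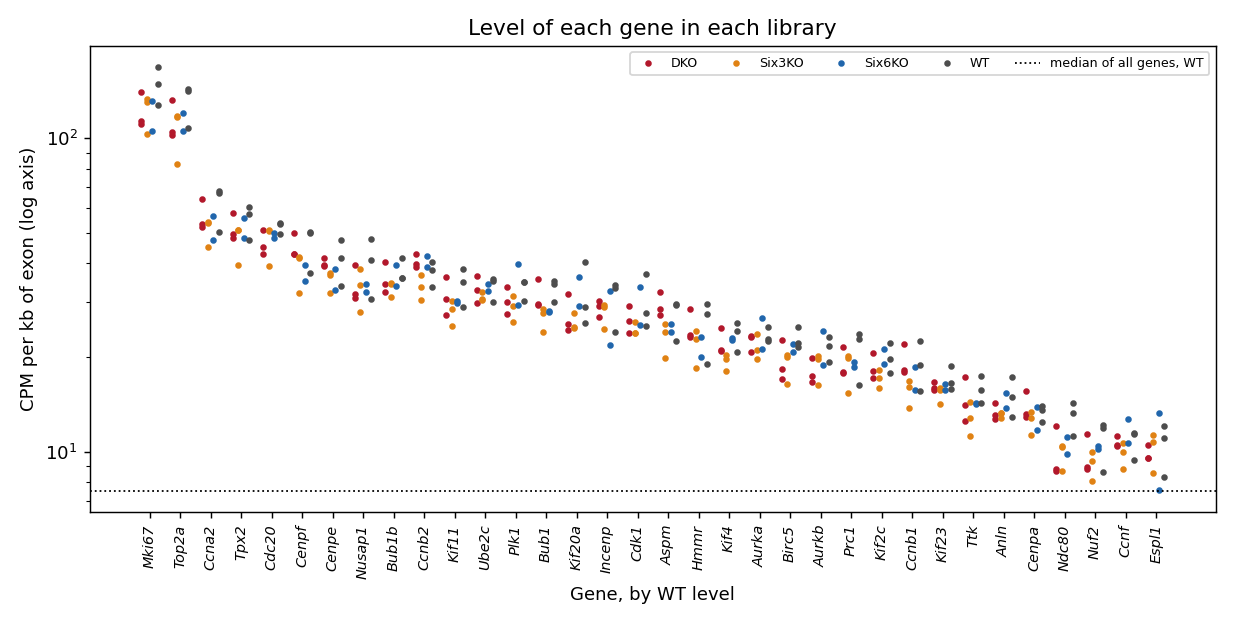
Level of each of the 34 genes (horizontal axis, ordered by the WT mean) in CPM per kb of exon (vertical axis, log scale); each point is 1 library, coloured by group from left to right as DKO, Six3KO, Six6KO and WT. The DKO and WT points overlap for every gene, and the dotted line marks the WT median of all genes, 7.53 CPM per kb.

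No mitosis or spindle gene passed the threshold in any of the comparisons of the 4 genotypes. In DKO against WT, 0 of 34 genes rose and 0 fell at an adjusted p under 0.05 (edgeR, Benjamini-Hochberg over all 13292 genes), where 1.29% of all genes were called; the estimates ran from -0.39 to 0.12 on the log2 scale with a median of -0.09. The 95% intervals of the 34 fold changes, taken gene by gene, reached from -0.74 to 0.42 at their outermost, so a fold change of 2 lay outside each of them. At an unadjusted p under 0.05, 1 of 34 genes was counted, against 13% of all genes, and DESeq2 gave 0 calls and 1 gene. Estimates lay below 0 for 30 of 34 genes, against 50.8% of all genes. The median was -0.18 without DKO library rh021, -0.17 without WT library rh024, and -0.04 without DKO library rh011 or WT library rh016. The 172 calls over all genes numbered 20, 25, 45, 59 and 61 without DKO libraries rh010 and rh011 and WT libraries rh016, rh023 and rh024, each left out alone. The CPM ranges of DKO and WT overlapped for every one of the 34, where 8.46% of all genes lay wholly below WT and 9.03% wholly above.

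In Six3KO against WT all 34 estimates lay below 0 (all genes, 51.4%), with a median of -0.22 against -0.01 for all genes, and 0 of 34 passed (all genes, 0.00752%, which is Esr1 alone, the gene part of which the Cre-ERTM transgene carries). At an unadjusted p under 0.05, 3 of 34 were counted (all genes, 3.5%), and DESeq2 gave 0 calls and the same count. The intervals reached from -0.74 to 0.43. Bub1, Bub1b, Birc5, Ndc80 and Kif4 lay lower in all 3 Six3KO libraries than in all 3 WT libraries, 5 of 34 (14.7%) where 3.7% of all genes did. The median moved with single libraries: it was -0.14 without Six3KO library rh026 and -0.32 without WT library rh024. Without WT library rh024, 18 of 34 had an unadjusted p under 0.05, where 5.11% of all genes had one in that fit, and 0 passed (smallest adjusted p = 0.894, edgeR). That count was 0 of 34 without WT library rh016 or rh023 (all genes, 3.38% and 3.09%) or Six3KO library rh026 (2.34%). It was 3 of 34 without Six3KO library rh006 or rh012 (all genes, 3.68% and 2.94%).

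In Six6KO against WT, 27 of 34 estimates lay below 0 (all genes, 48.5%), with a median of -0.09 and intervals from -0.73 to 0.52. The median was -0.16 without Six6KO library rh020 and -0.15 without WT library rh024. None of the 34 passed in edgeR or DESeq2 (all genes, 0% in edgeR), and 0 had an unadjusted p under 0.05 in either (all genes, 3.9% in edgeR and 4.43% in DESeq2). Bub1 and Ndc80 lay lower in both Six6KO libraries than in every WT library, 2 of 34 (5.88%) where 5.85% of all genes did. The 3 comparisons share the WT libraries, so they are not independent of each other. Among the 4470 genes in the same range of mean CPM as the 34, estimates lay below 0 for 46.0% in DKO, 57.2% in Six3KO and 57.7% in Six6KO against WT.

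**Figure D3:**
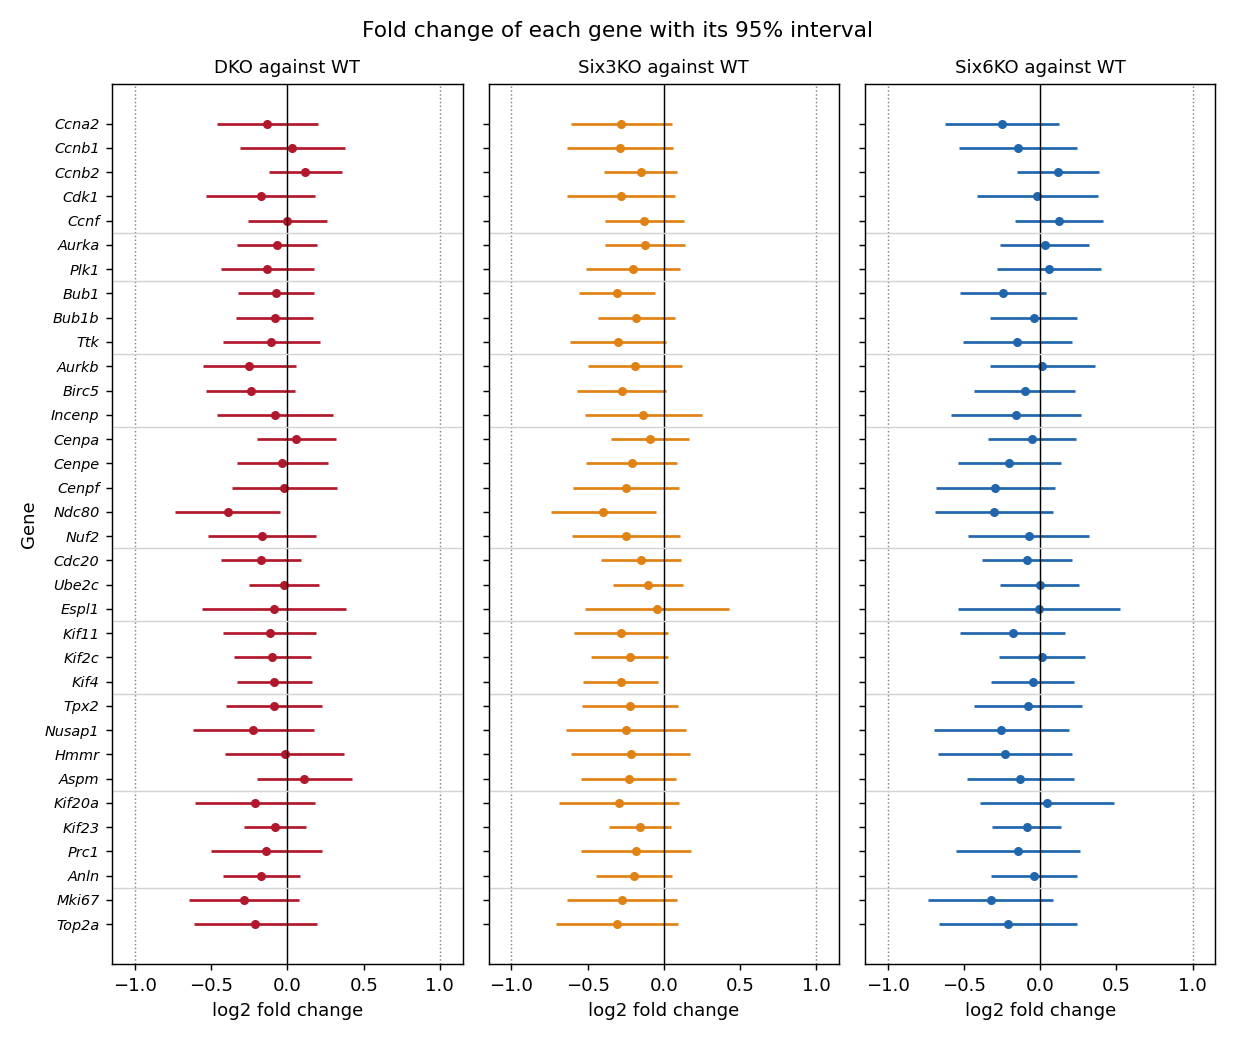
Log2 fold change against WT (horizontal axes) of each gene (vertical axis, grouped by role) in DKO, Six3KO and Six6KO; points are edgeR estimates, bars their 95% intervals, and dotted lines mark a 2 fold change. Every bar ends inside the dotted lines, and all 34 Six3KO points lie left of 0.

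Cdk1 and the 4 cyclins had DKO estimates on both sides of 0, from -0.18 to 0.12 against WT on the log2 scale. Cdk1, the kinase that drives entry into mitosis, stood at 129, 118 and 144 CPM in DKO, 128, 118 and 118 CPM in Six3KO and 125 and 166 CPM in Six6KO, against 182, 136 and 124 CPM in WT. WT library rh016 was the highest of all for Cdk1, and the other WT libraries lay among the mutants. The log2 fold change of Cdk1 was -0.18 ± 0.16 in DKO (adjusted p = 0.753, edgeR), and it lay at 0.0023 without WT library rh016. Ccnb2, a B-type cyclin, stood at 59.6, 61.0 and 65.5 CPM in DKO, 56.3, 51.3 and 46.7 CPM in Six3KO and 59.4 and 64.6 CPM in Six6KO, against 61.9, 58.2 and 51.4 CPM in WT. DKO libraries lay in the upper part of the WT range or above it for Ccnb2, and above every Six3KO library, with a fold change of 0.12 ± 0.11 in DKO (adjusted p = 0.761), -0.15 ± 0.11 in Six3KO and 0.12 ± 0.12 in Six6KO. For Ccna2, the A-type cyclin of S and G2 phase, the log2 fold changes in DKO, Six3KO and Six6KO were -0.13 ± 0.15, -0.28 ± 0.15 and -0.25 ± 0.17. Ccnb1, the main partner of Cdk1 at mitotic entry, had log2 fold changes of 0.03 ± 0.15, -0.29 ± 0.15 and -0.15 ± 0.17. Its transcripts are matched by 5 annotated pseudogenes at 95% identity or more over 200 bases, which may have affected its count. Ccnf, a cyclin that works as a ubiquitin ligase subunit, had log2 fold changes of -0.0015 ± 0.12, -0.13 ± 0.12 and 0.12 ± 0.13.

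The entry kinases Plk1 and Aurka had intervals that included 0 in every mutant. Plk1, the Polo-like kinase that matures centrosomes and activates Cdk1, stood at 66.1, 60.5 and 73.6 CPM in DKO, 69.2, 64.4 and 56.9 CPM in Six3KO and 87.3 and 64.7 CPM in Six6KO, against 66.4, 76.4 and 76.5 CPM in WT. Its highest library was Six6KO rh007 and its lowest Six3KO rh026, and the DKO range overlapped WT (log2 fold change -0.13 ± 0.14, adjusted p = 0.808). Aurka, the Aurora kinase of the spindle poles, stood at 58.7, 52.6 and 59.1 CPM in DKO, 60.1, 53.6 and 50.1 CPM in Six3KO and 54.0 and 67.6 CPM in Six6KO, against 63.5, 58.0 and 57.1 CPM in WT, and its fold changes were -0.07 ± 0.12 in DKO, -0.13 ± 0.12 in Six3KO and 0.03 ± 0.13 in Six6KO. Exons of Plk1 overlap those of Gm44985 on the other strand, and such reads cannot be told apart where counting ignores strand.

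Spindle checkpoint kinases had estimates below 0 in all 3 mutants. Bub1, which recruits checkpoint proteins to kinetochores (chromosome 2, 127801122 to 127831865, minus strand, GRCm38), stood at 128, 129 and 155 CPM in DKO, 125, 120.5 and 105 CPM in Six3KO and 121 and 122 CPM in Six6KO, against 149, 153 and 130.5 CPM in WT. The DKO and WT libraries overlapped, whereas every Six3KO and Six6KO library lay below every WT library and every DKO library. Its log2 fold change was -0.07 ± 0.11 in DKO, -0.31 ± 0.11 in Six3KO (95% interval -0.56 to -0.06, unadjusted p = 0.0211, adjusted p = 1.00, edgeR) and -0.24 ± 0.13 in Six6KO. Bub1b (BubR1), a component of the checkpoint complex that holds back Cdc20, stood at 147, 138 and 172 CPM in DKO, 148, 146 and 134 CPM in Six3KO and 145 and 169 CPM in Six6KO, against 178, 154 and 153 CPM in WT. The DKO and Six6KO ranges of Bub1b overlapped that of WT, while all 3 Six3KO libraries lay just under it, the highest at 148 CPM against a WT minimum of 153 CPM. Ttk (Mps1), the kinase at the head of the checkpoint, stood at 69.7, 61.9 and 85.4 CPM in DKO, 71.1, 63.3 and 55.2 CPM in Six3KO and 69.8 and 70.5 CPM in Six6KO, against 85.7, 77.6 and 70.2 CPM in WT, with fold changes of -0.11 ± 0.14, -0.30 ± 0.14 and -0.15 ± 0.16 in DKO, Six3KO and Six6KO.

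Of the chromosomal passenger complex, which corrects faulty attachments and later directs cytokinesis, the kinase and its survivin subunit had the lower estimates in DKO. Aurkb, the kinase, stood at 51.5, 49.1 and 58.8 CPM in DKO, 59.7, 58.1 and 48.2 CPM in Six3KO and 71.8 and 55.8 CPM in Six6KO, against 56.8, 68.6 and 64.2 CPM in WT, and Birc5 (survivin), which docks the complex at centromeres, at 62.6, 58.3 and 77.4 CPM in DKO, 68.4, 69.1 and 56.2 CPM in Six3KO and 70.8 and 74.9 CPM in Six6KO, against 85.3, 73.3 and 75.9 CPM in WT. For both genes DKO libraries rh010 and rh011 lay below all of WT and rh021 within it. Fold changes in DKO were -0.25 ± 0.14 for Aurkb (adjusted p = 0.517) and -0.24 ± 0.13 for Birc5 (adjusted p = 0.507). In Six3KO they were -0.19 ± 0.14 and -0.28 ± 0.13, and in Six6KO 0.01 ± 0.15 and -0.10 ± 0.15. Incenp, the scaffold of the complex, varied widely within groups, between 95 and 141 CPM in the Six6KO libraries and between 104 and 147 CPM in WT, with a DKO fold change of -0.08 ± 0.17.

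Among centromere and kinetochore genes, Ndc80 had the lowest estimate of all 34 genes in DKO. Ndc80, the microtubule-binding subunit of the outer kinetochore (chromosome 17, 71496100 to 71526857, minus strand), stood at 57.4, 56.3 and 78.5 CPM in DKO, 67.9, 67.1 and 56.5 CPM in Six3KO and 63.8 and 72.6 CPM in Six6KO, against 92.7, 86.5 and 73.0 CPM in WT. DKO library rh021 lay within WT for Ndc80 and the other DKO libraries below it, while every Six3KO and Six6KO library lay below every WT library, by under 1 CPM in the case of Six6KO library rh020. The log2 fold change was -0.39 ± 0.15 in DKO (interval -0.74 to -0.05, unadjusted p = 0.0295, adjusted p = 0.301), -0.40 ± 0.15 in Six3KO and -0.30 ± 0.17 in Six6KO. A transcribed pseudogene in the table, 2700099C18Rik, matches 303 bases of Ndc80 at 95% identity, which may have affected the count of Ndc80. Nuf2, its partner in the same complex, stood at 56.0, 56.7 and 72.3 CPM in DKO, 63.4, 59.5 and 51.3 CPM in Six3KO and 64.6 and 66.4 CPM in Six6KO, against 77.1, 75.5 and 54.5 CPM in WT. Each mutant overlapped WT for Nuf2, with fold changes of -0.16 ± 0.16, -0.25 ± 0.16 and -0.08 ± 0.18. Cenpf, a large protein of the outer kinetochore, stood at 660.0, 659 and 771 CPM in DKO, 642, 645 and 497 CPM in Six3KO and 542 and 608 CPM in Six6KO, against 775, 770.1 and 573 CPM in WT. Its 3 DKO libraries lay above every Six3KO and Six6KO library and overlapped WT, with a DKO fold change against WT of -0.02 ± 0.15. Cenpe, a kinetochore motor that moves chromosomes to the spindle equator, had -0.04 ± 0.13, -0.21 ± 0.13 and -0.20 ± 0.15. Cenpa, the centromeric histone H3 variant, had 0.06 ± 0.12, -0.09 ± 0.12 and -0.06 ± 0.13 in DKO, Six3KO and Six6KO.

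Genes of anaphase onset had estimates from -0.17 to -0.02 in DKO, and all their intervals included 0. Cdc20, the activator of the anaphase-promoting complex and the target of the checkpoint, stood at 84.3, 79.6 and 94.9 CPM in DKO, 95.2, 94.4 and 73.2 CPM in Six3KO and 93.3 and 90.1 CPM in Six6KO, against 92.3, 100.5 and 99.3 CPM in WT, and its DKO fold change was -0.17 ± 0.12 (adjusted p = 0.635). Exons of Cdc20 overlap those of Elovl1 on the other strand, which may have affected its count. Espl1 (separase), the protease that cuts cohesin, stood at 92.0, 83.9 and 83.5 CPM in DKO, 98.8, 93.8 and 74.8 CPM in Six3KO and 117 and 66.2 CPM in Six6KO, against 72.8, 97.0 and 106 CPM in WT. It had the widest spread within groups of all 34 genes (pooled SD 0.29 on the log2 scale), its highest and lowest libraries both being Six6KO, and its DKO fold change of -0.09 ± 0.21 lay at 0.02 without WT library rh024. Ube2c, the ubiquitin-conjugating enzyme of the complex, had -0.02 ± 0.10, -0.11 ± 0.10 and -0.0043 ± 0.12 in DKO, Six3KO and Six6KO, and a pooled SD of 0.11.

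Kinesins of the spindle and chromosomes had estimates from -0.12 to -0.09 in DKO. Kif11 (Eg5), the motor that pushes spindle poles apart, stood at 229, 204 and 270.2 CPM in DKO, 213, 225 and 189 CPM in Six3KO and 222 and 225 CPM in Six6KO, against 286, 259.8 and 216 CPM in WT, and Kif2c (MCAK), which removes microtubule ends, at 79.3, 75.2 and 90.1 CPM in DKO, 74.9, 79.7 and 69.6 CPM in Six3KO and 83.1 and 93.0 CPM in Six6KO, against 97.1, 86.5 and 78.1 CPM in WT. Their DKO and WT ranges overlapped, with fold changes of -0.12 ± 0.14 and -0.10 ± 0.11 in DKO and -0.28 ± 0.14 and -0.22 ± 0.11 in Six3KO. Kif4, a chromosome-bound kinesin encoded on the X chromosome, stood at 115, 116 and 137 CPM in DKO, 109, 113 and 99.6 CPM in Six3KO and 125 and 127 CPM in Six6KO, against 142, 134 and 115 CPM in WT. Its Six3KO libraries lay below all DKO and all WT libraries, with a fold change against WT of -0.28 ± 0.11 (unadjusted p = 0.0274, adjusted p = 1.00) in Six3KO, against -0.09 ± 0.11 in DKO and -0.05 ± 0.12 in Six6KO. Exons of Kif4 overlap those of Pdzd11 on the other strand.

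Genes of spindle assembly and poles had DKO estimates on both sides of 0. Nusap1, a microtubule bundler around chromosomes, stood at 129.5, 126 and 160.2 CPM in DKO, 156, 139 and 114 CPM in Six3KO and 132 and 139 CPM in Six6KO, against 194, 166 and 125 CPM in WT. The WT range of Nusap1 held every other library except Six3KO rh026. Aspm, the spindle pole protein whose human gene is mutated in a primary microcephaly (chromosome 1, 139454772 to 139494091, plus strand), stood at 330.2, 317 and 375 CPM in DKO, 279.8, 296 and 230.2 CPM in Six3KO and 279 and 297 CPM in Six6KO, against 343, 342 and 261 CPM in WT. All 3 DKO libraries lay above all Six3KO and Six6KO libraries for Aspm and overlapped WT. The fold changes of Nusap1 were -0.22 ± 0.18, -0.25 ± 0.18 and -0.26 ± 0.20 in DKO, Six3KO and Six6KO, and those of Aspm 0.11 ± 0.14, -0.23 ± 0.14 and -0.13 ± 0.16; the DKO value of Aspm lay at -0.01 without WT library rh024. Tpx2, which activates Aurora A on the spindle, had -0.09 ± 0.14, -0.22 ± 0.14 and -0.08 ± 0.16. Hmmr, a spindle protein that also binds hyaluronan at the cell surface, had -0.02 ± 0.17, -0.22 ± 0.17 and -0.23 ± 0.20.

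The 4 central spindle and cytokinesis genes had DKO estimates below 0. Anln (anillin), the scaffold of the contractile ring, stood at 119, 116 and 129 CPM in DKO, 116, 121 and 121 CPM in Six3KO and 125 and 140.1 CPM in Six6KO, against 157, 135 and 117 CPM in WT, and Kif20a (MKLP2), the motor that carries the passenger complex to the midzone, at 111, 106 and 139 CPM in DKO, 119.9, 108 and 109 CPM in Six3KO and 126 and 157 CPM in Six6KO, against 174, 125 and 112 CPM in WT. DKO overlapped WT for both, with fold changes of -0.17 ± 0.11 (adjusted p = 0.621) and -0.21 ± 0.18 (adjusted p = 0.722). Kif23 (MKLP1), a subunit of centralspindlin, had the narrowest spread within groups of the 34 genes (pooled SD 0.086 on the log2 scale), with -0.08 ± 0.09, -0.16 ± 0.09 and -0.09 ± 0.10 in DKO, Six3KO and Six6KO. Prc1, which bundles the microtubules of the midzone, had -0.14 ± 0.16, -0.18 ± 0.16 and -0.15 ± 0.18. Exons of Kif20a overlap those of Cdc23, and exons of Prc1 those of Rccd1, on the other strand.

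Mki67 and Top2a, the most abundant of the set per length, had intervals that included 0 in every mutant. Mki67 stood at 1144, 1118 and 1408 CPM in DKO, 1312, 1346 and 1038 CPM in Six3KO and 1319 and 1062 CPM in Six6KO, against 1495, 1695 and 1280.3 CPM in WT. DKO libraries rh010 and rh011 and Six3KO library rh026 lay below all WT libraries for Mki67, as did Six6KO library rh020, and the fold changes were -0.28 ± 0.16 in DKO (interval -0.65 to 0.08, adjusted p = 0.541), -0.27 ± 0.16 in Six3KO and -0.32 ± 0.18 in Six6KO. Top2a stood at 946, 922 and 1190.4 CPM in DKO, 1060.3, 1053 and 746 CPM in Six3KO and 954 and 1084 CPM in Six6KO, against 1293, 1276 and 968 CPM in WT, with -0.21 ± 0.18, -0.31 ± 0.18 and -0.21 ± 0.20. Its lowest library was Six3KO rh026, which held the most mesenchyme RNA of all 11.

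**Figure D4:**
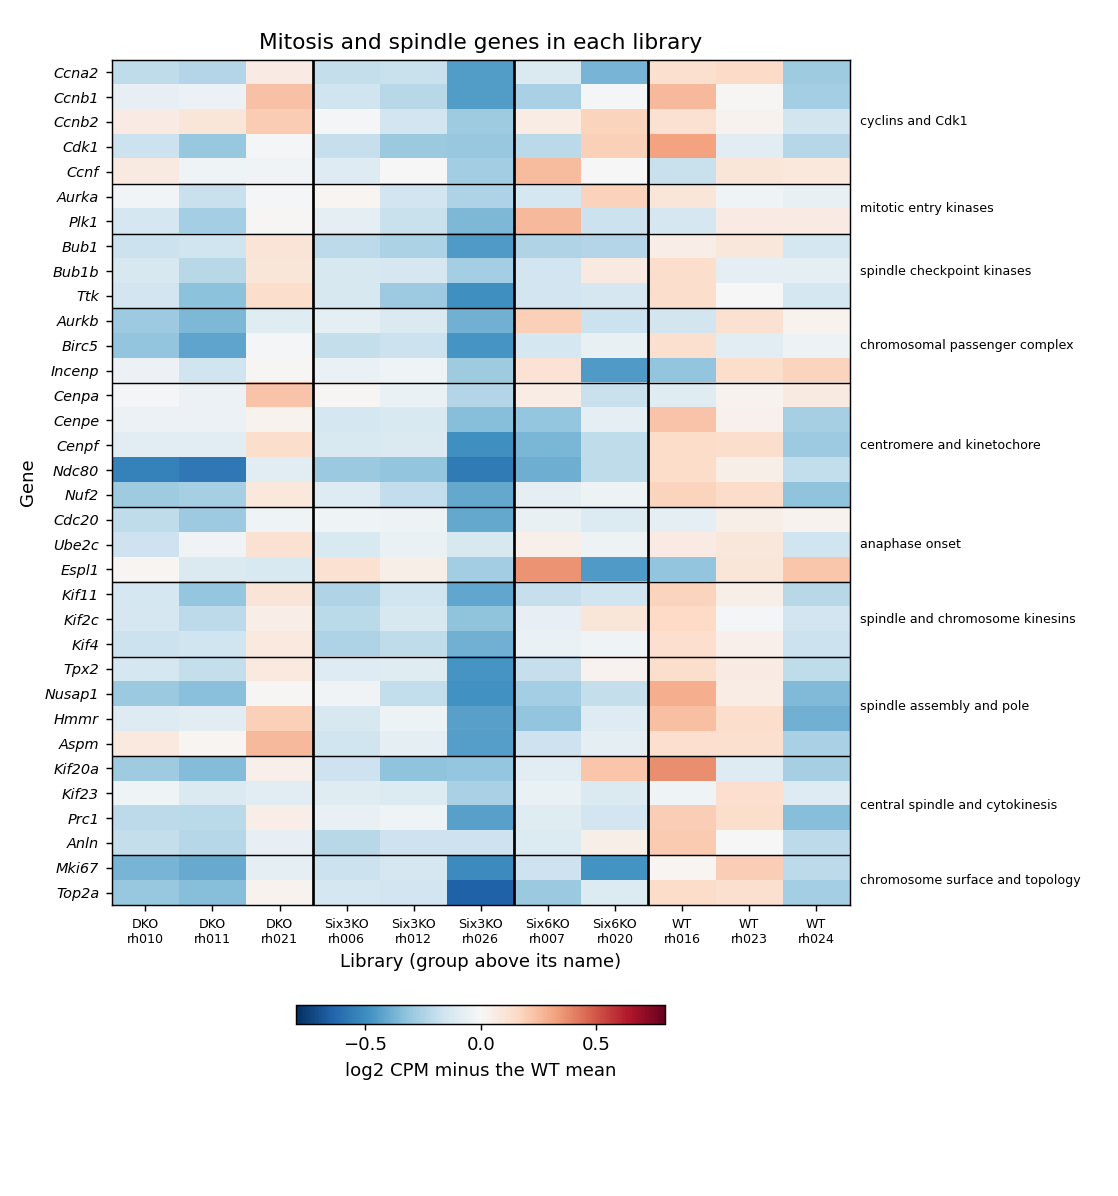
Log2 CPM minus the WT mean (colour) of each of the 34 genes (rows, grouped by role) in each of the 11 libraries (columns, grouped as DKO, Six3KO, Six6KO and WT). Single libraries shift as a block, Six3KO rh026 downward for all 34 genes and DKO rh021, WT rh016 and WT rh023 upward for most. The other libraries lie below the WT mean for most genes.

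Libraries of 1 group differed from each other across most of the 34 genes at once. Among the DKO libraries rh021 was the highest for 31 of 34 genes and rh011 the lowest for 26, where rh021 was the highest for 37.8% of all genes and rh011 the lowest for 27.4%. Six3KO library rh026 was the lowest of its group for 32 of 34 (all genes, 46.4%), and WT library rh024 for 26 of 34 (all genes, 35.1%). The 34 genes summed to 6562, 6372 and 7729 CPM in DKO, 6816, 6827 and 5499.7 CPM in Six3KO and 6664 and 6683 CPM in Six6KO, against 8111, 8078 and 6524 CPM in WT. The lowest WT library thus lay below 2 of the 3 DKO libraries. DKO library rh011 and Six3KO library rh026 lay below the WT range, and the other mutant libraries within it. In each of the 4 groups the library with the fewest reads also had the lowest sum, and DKO library rh021 held the most Six3 and Six6 of its group; the part of either in the order was not tested. The median pooled SD within groups was 0.17 on the log2 scale for the 34 genes, against 0.18 for the 4470 genes in the same range of mean CPM and 0.23 for all genes.

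In DKO against Six3KO, 2 groups that both carry Cre, 30 of 34 estimates lay above 0 (4 below, 11.8%, against 47.5% of all genes below 0), with a median of 0.10 and intervals from -0.52 to 0.66. Among the 4470 genes in the same range of mean CPM, 38.9% lay below 0, with a median of 0.04. None of the 34 passed in edgeR or DESeq2 (all genes, 0.587% in edgeR), and 2 had an unadjusted p under 0.05 in either (all genes, 13.2% in edgeR and 14.6% in DESeq2). These were Ccnb2, at 0.27 ± 0.11 (unadjusted p = 0.0318, adjusted p = 0.315, edgeR), and Aspm, at 0.34 ± 0.14 (unadjusted p = 0.0351, adjusted p = 0.328). Bub1 followed at 0.23 ± 0.11. Without Six3KO library rh026 or DKO library rh021, 0 of 34 had an unadjusted p under 0.05 (all genes, 10.2% and 10.4%, edgeR). Without any other single library of the 2 groups, 1 of 34 had one (all genes, 8.07% to 13.2%). Ccnb1, Ccnb2, Bub1, Cenpe, Cenpf, Kif4 and Aspm lay higher in all DKO than in all Six3KO libraries, 7 of 34 (20.6%) where 13.4% of all genes did. The median was 0.16 without DKO library rh011, 0.03 without DKO library rh021, where 13 of 34 estimates lay below 0, and 0.06 without Six3KO library rh026, where 10 did.

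In DKO against Six6KO estimates lay on both sides of 0, 18 of 34 below 0 (all genes, 53.1%), with a median of -0.0029 and intervals from -0.70 to 0.67. The sign of the median rested on 1 library: it was -0.09 without DKO library rh021, with 24 of 34 below 0, and between 0.01 and 0.03 without any other single library of the 2 groups, with 14 to 16 below 0. There were 0 calls in edgeR and DESeq2 (all genes, 0.233% in edgeR) and 0 at an unadjusted p under 0.05 in either (all genes, 14.8% in edgeR and 16.7% in DESeq2). Aurkb, with the smallest p, stood at -0.26 ± 0.15 (adjusted p = 0.454), Cenpf at 0.28 ± 0.17 and Aspm at 0.24 ± 0.16. Bub1, Cenpe, Cenpf and Aspm lay higher in all DKO than in both Six6KO libraries, 4 of 34 (11.8%) where 16.8% of all genes did.

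The difference between the DKO effect and the 2 single effects added together, each against WT on the log2 scale, was above 0 for 32 of 34 genes (2 below, 5.88%, against 51.2% of all genes below 0), with a median of 0.20 and intervals from -0.75 to 1.05. Among the 4470 genes in the same range of mean CPM, 39.7% lay below 0, with a median of 0.06. None of the 34 passed in edgeR or DESeq2 (all genes, 0% in edgeR), and 3 had an unadjusted p under 0.05 in either (all genes, 9.99% in edgeR and 11.4% in DESeq2). With 1 library left out the median ran from 0.12, without DKO library rh021 or Six3KO library rh026, to 0.26, without WT library rh024, and 1 to 6 estimates lay below 0. The 3 genes at an unadjusted p under 0.05 were Bub1 at 0.48 ± 0.17 (adjusted p = 0.385), Aspm at 0.47 ± 0.21 and Cenpf at 0.52 ± 0.23 (adjusted p = 0.497 for both). The DKO libraries had less mesenchyme RNA than every library of the single mutants, and the part of this in the comparison was not tested.

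Other mitosis genes, a list of 60 that includes condensins, further kinetochore and cytokinesis genes and Cdc25 phosphatases, also gave no calls. All 60 were tested, and 0 rose and 0 fell in DKO (49 estimates below 0, median -0.10), Six3KO (56 below 0, median -0.20) or Six6KO (50 below 0, median -0.14) against WT. At an unadjusted p under 0.05 in edgeR there were 3, 4 and 3 of 60, against 13%, 3.5% and 3.9% of all genes. Closest to the threshold in DKO was Cdc25b, a phosphatase that activates Cdk1, at 34, 35 and 41.4 CPM in DKO and 57.3, 50.2 and 48.1 CPM in Six3KO, against 55.4, 68.0 and 56.7 CPM in WT. Its log2 fold change was -0.71 ± 0.16 in DKO (adjusted p = 0.0821, edgeR). Melk, a kinase of dividing cells, stood at -0.41 ± 0.14 and Iqgap3, a scaffold protein, at -0.34 ± 0.14 (adjusted p = 0.236 and 0.327).

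Regulators of the programme did not pass either, with 0 of 22 called in DKO, Six3KO or Six6KO against WT. Foxm1 stood at 103, 98.8 and 107 CPM in DKO, against 82.0, 132 and 120.3 CPM in WT (-0.12 ± 0.24), and Mybl2 (B-Myb) at -0.14 ± 0.23. Smallest in p in DKO were Cdkn1a, the p21 inhibitor of cyclin-dependent kinases, E2f8 and E2f2, which belong to the E2F factors of the cell cycle. Cdkn1a stood at 12.9, 20.5 and 2.30 CPM in DKO, 16.7, 17.9 and 36.9 CPM in Six3KO and 11.7 and 16.2 CPM in Six6KO, against 1.56, 3.12 and 2.93 CPM in WT. DKO library rh021 was within WT for Cdkn1a and every other mutant library above it; the fold changes were 2.24 ± 0.69 in DKO (adjusted p = 0.178), 3.25 ± 0.71 in Six3KO and 2.47 ± 0.74 in Six6KO. Of 15 p53 target genes, Cdkn1a among them, 0 were called in DKO, Six3KO or Six6KO against WT, with 12, 15 and 11 estimates above 0 and medians of 0.22, 0.67 and 0.18. In edgeR 4, 6 and 1 of these 15 genes had an unadjusted p under 0.05, against 13%, 3.5% and 3.9% of all genes. By library their median lay at 0.31, 0.59 and -0.01 from the WT mean in DKO, 0.51, 0.27 and 1.09 in Six3KO and 0.09 and 0.36 in Six6KO, against 0.17, -0.12 and 0.11 in WT. It was highest in Six3KO library rh026, where the 34 mitosis genes were lowest, and its part in their estimates was not tested. E2f8 stood at -0.48 ± 0.20 and E2f2 at -0.59 ± 0.27 in DKO.

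The median of the 34 genes lay nearer to 0 in DKO than that of S phase genes. The 25 S phase genes had a median of -0.29 in DKO, -0.25 in Six3KO and -0.04 in Six6KO against WT, with 0 calls each, against -0.09, -0.22 and -0.09 for the 34. The difference between the lists was not tested. Of the 25, 25, 25 and 16 estimates lay below 0. In edgeR 8, 7 and 0 of the 25 had an unadjusted p under 0.05, against 13%, 3.5% and 3.9% of all genes. By library, the median S phase gene lay at -0.32, -0.42 and -0.11 from the WT mean in DKO, against 0.08, 0.04 and -0.11 in WT, on the log2 scale, where the median of the 34 lay at -0.15, -0.21 and 0.05 in DKO, against 0.14, 0.06 and -0.18 in WT. Retinal progenitor genes had 0 of 12 called in DKO against WT with a median of -0.65, and of 20 ganglion cell and neuron genes 1 fell and 0 rose (Rbpms, an RNA-binding protein of ganglion cells, at -1.78 ± 0.17, adjusted p = 0.00243, edgeR, named here after its value was seen), with a median of -0.57. At an unadjusted p under 0.05 there were 6 of these 12 and 3 of these 20, against 13% of all genes. Genes with the CHR letters in the promoter and genes without them had median log2 fold changes of -0.09 (23 genes) and -0.12 (6 genes) in DKO against WT, of -0.20 and -0.26 in Six3KO against WT, and of -0.06 and -0.17 in Six6KO against WT. In DKO against Six3KO these medians were 0.10 and 0.13, and in DKO against Six6KO -0.02 and 0.10; the difference between the sets was not tested.

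**Figure D5:**
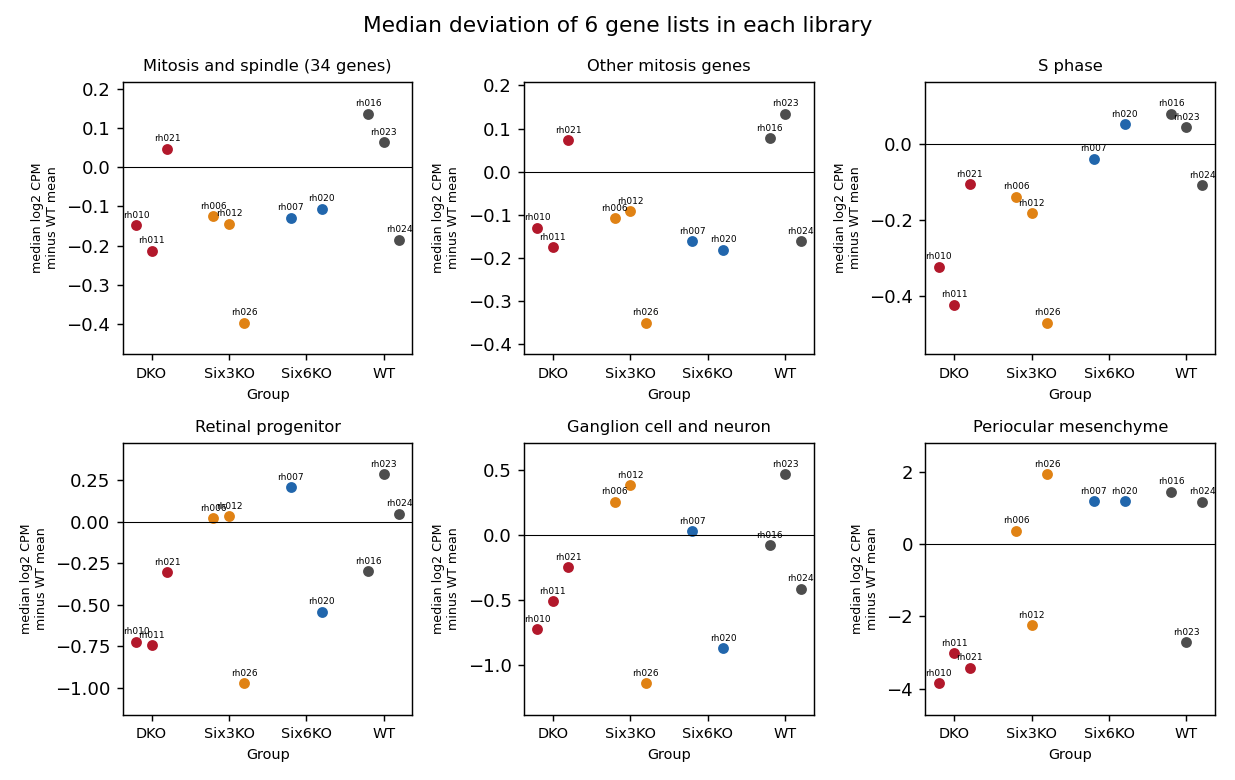
Median over the genes of 6 lists of the log2 CPM minus the WT mean (vertical axes, each with its own scale) in each library (points, named), for DKO, Six3KO, Six6KO and WT (horizontal axes). The 34 genes span -0.40 in Six3KO library rh026 to 0.14 in WT library rh016, while the mesenchyme list spans -3.85 to 1.94 and sets the 3 DKO libraries below all others.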

How the data were processed

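RNA from 11 pairs of E13.5 retinas was sequenced, and the authors deposited a single table with a raw read count for each gene. Per the submitters' processing notes, the tools were Trim Galore 0.3.7, TopHat2 2.0.13, HTSeq 0.6.1, Cufflinks 2.2.1 and Cuffdiff, with build mm10; neither the strand setting nor the annotation used for counting is named in them. Per the series' design text the mutants were compared with WT in DESeq2. The columns name a group and a library but no replicate number.

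The 34 genes and all lists were chosen with earlier results of these data known. Counts of all 4 groups entered 1 edgeR 4.0.16 quasi-likelihood fit in R 4.3.3 after filterByExpr (minimum count 10) and TMM scaling. Contrasts gave log2 fold changes ± standard error with 7 residual degrees of freedom before moderation, and p-values were adjusted by Benjamini-Hochberg over 13292 genes, at a threshold of 0.05. p-values measure the spread between pairs of retinas of a group. CPM carry TMM factors. Alternatives were RLE or no scaling, no filter on low counts, DESeq2 1.42.0, fits of the compared groups alone, and leaving out libraries. Every pair of libraries in a group differed beyond counting noise, with a chi-square of 9.72 to 77.3 per degree of freedom.

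Named genes were the 2 of each role of smallest p in DKO against WT and the 3 with the smallest p in each other comparison; further members are given by their fold changes, with values by library for Cdc25b and regulators of smallest p. Positions and exon overlaps are from GENCODE vM21 (GRCm38), and promoters from RefSeq (GRCm38.p6). For 8 of the 34 genes exons overlap a gene on the other strand, and 4 have near copies (at least 95% identity over 200 bases). Beside those named with their genes above, the overlaps are of Ccna2 with Exosc9, Ube2c with Tnnc2 and Nusap1 with Oip5. These may have affected the counts too.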

Additional observations from a re-analysis of the deposited data

How the results depend on the processing

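Under every scaling, filter, tool and left-out library tried, 0 of the 34 genes were called in each of the 6 comparisons, over 74 recomputed values. The 74 medians moved by less than the spread between libraries of a group (SD 0.141 on the log2 scale). That SD was larger than the main median in DKO against WT (-0.09), Six6KO against WT (-0.09), DKO against Six3KO (0.10) and DKO against Six6KO (-0.0029). Moves within it could therefore not show that a median kept its size or sign. The SD describes single libraries and is not the standard error of a difference between groups. It does not show that the medians in Six3KO against WT (-0.22) and against the added single effects (0.20) exceed such an error. The median in DKO against WT ran from -0.18 to -0.04, that in Six3KO against WT from -0.32 to -0.14, that in Six6KO against WT from -0.16 to -0.06, that in DKO against Six6KO from -0.09 to 0.03, and that of DKO against the added single effects from 0.12 to 0.26. The number of estimates below 0 moved by over 1.5 times in 17 of 74 cases, 7 in DKO against Six3KO (1 to 13 of 34, 4 in the main setting) and 10 for DKO against the added single effects (1 to 6, 2 in the main setting). Of 426 recomputed fold changes of named genes, 423 kept their direction and side of the threshold. The 3 that turned were all in DKO against WT: with 1 library left out Cdk1 ran from -0.29 to 0.0023 (above 0 without WT library rh016), Espl1 from -0.23 to 0.025 and Aspm from -0.0097 to 0.18 (turning without WT library rh024); the cause was not tested. The count of all genes called in DKO against WT, 172, was 769 in DESeq2, 283 without both Six3KO library rh026 and Six6KO library rh020, and 20 to 205 with 1 library left out, lowest without DKO library rh010. Without WT library rh024, 5 of the 34 genes in DKO, 18 in Six3KO and 7 in Six6KO had an unadjusted p under 0.05, against 11.9%, 5.11% and 6.11% of all genes in that fit. Without WT library rh016 the count was 0 of 34 in each mutant (all genes, 11.8%, 3.38% and 7.47%). It was also 0 of 34 in each without WT library rh023 (all genes, 13.9%, 3.09% and 2.44%). No paired analysis was possible because neither the sample labels nor the columns link libraries of different groups. With 403 or more reads per gene and library, counting error was small beside the spread between libraries, and 2 to 3 libraries per group set the width of the intervals.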
